A study of Mus musculus with 8 samples.

Results

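The genes described here are 10 core parts of the machinery that takes a cell from G1 into S phase: the cyclins Ccnd2, Ccnd3 and Ccne1, the cyclin-dependent kinases Cdk4 and Cdk6, and the CDK inhibitors Cdkn1a, Cdkn1b, Cdkn2b, Cdkn2c and Cdkn2d. They were chosen by name, and all 10 were found once among the 47069 gene rows of the expression table. RNA was sequenced from OT-I CD8 T cells, whose transgenic T cell receptor recognises an ovalbumin peptide. All 8 libraries came from cells stimulated for 24 h with the altered peptide OVA-T4 (SIITFEKL, 10 nM), 4 of them in the presence of recombinant human TGFβ (OVA-T4 + TGFβ, 5 ng/ml) and 4 without it (OVA-T4). The cells came from mouse lymph nodes, and the genotype label is WT. The study used 7 to 12 week old OT-I mice and OT-I Rag1-/- mice, which lack mature B cells and T cells with other receptors, and the sources used here do not say which gave these samples. No unstimulated cells are included, so each value compares activated cells with activated cells.

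D-type cyclins bind CDK4 or CDK6, and these complexes begin to phosphorylate the retinoblastoma protein Rb, which frees E2F transcription factors to switch on Ccne1 and the genes of S phase. Cyclin E with CDK2 completes the phosphorylation of Rb. INK4 inhibitors (among the members, those encoded by Cdkn2b, Cdkn2c and Cdkn2d) bind CDK4 and CDK6. CIP/KIP inhibitors (among the members, those encoded by Cdkn1a and Cdkn1b) bind cyclin E with CDK2. Resting T cells hold much p27, the product of Cdkn1b, and stimulation through the T cell receptor and IL-2 lowers it while D-type cyclins and their kinases are made. In epithelial cells TGFβ is known to arrest the cycle in G1 through the product of Cdkn2b and through loss of Myc, and Myc is known to activate Cdk4.

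Between 35586261 and 40040249 reads lay behind each OVA-T4 + TGFβ library and between 35839293 and 41597929 behind each OVA-T4 library, so that 1 read in 1 kb of transcript was worth 0.0240 to 0.0281 FPKM (fragments scaled to transcript length and library total). Replicates of a group had r of 0.981 to 0.992 across genes, and the first principal component, which held 64.7% of the variance, separated the groups. OVA-T4 replicate 2 had 5.35% of its FPKM in the single row Gm23935, against 1.00% to 2.26% in the other 7 libraries. The 8 CD8 T cell markers (Cd3d, Cd3e, Cd3g, Cd8a, Cd8b1, Trac, Lck and Cd247) were all present, and their summed level was 3061 to 3262 FPKM in OVA-T4 + TGFβ libraries and 2467 to 2755 FPKM in OVA-T4 libraries, without overlap. Markers of other cells also differed. The 8 B cell markers summed to 264 to 283 FPKM with OVA-T4 + TGFβ and 209 to 242 FPKM with OVA-T4, of which Ighm made up 89.4%, with Ms4a1 at 0 in every library and Pax5 and Cd22 at or near 0. Of the other B cell markers, Cd79a (2.16 FPKM with OVA-T4 + TGFβ and 0.420 with OVA-T4, limma adjusted p = 3.76e-05), Cd79b (8.89 FPKM with OVA-T4 + TGFβ and 4.24 with OVA-T4, 7.79e-05) and Ighd (23.1 FPKM with OVA-T4 + TGFβ and 14.2 with OVA-T4, 0.00428) were each detected and higher with TGFβ, as was Ighm (0.0158). The 10 dendritic cell markers summed to 357 to 461 FPKM with OVA-T4 + TGFβ and 199 to 318 FPKM with OVA-T4, of which Ccr7, which T cells also express, made up 96.3% (limma adjusted p = 0.00289). Itgax averaged 1.74 FPKM with OVA-T4 + TGFβ and 0.262 with OVA-T4 (limma adjusted p = 5.44e-05) and H2-Aa 9.79 FPKM with OVA-T4 + TGFβ and 4.22 with OVA-T4 (limma adjusted p = 0.00281), so that these also rose. The 4 neutrophil markers summed to 0.844 to 2.19 FPKM with OVA-T4 + TGFβ and 0 to 0.692 FPKM with OVA-T4, with Ly6g at 0, and S100a8 rose (limma adjusted p = 0.00885). The 10 macrophage and monocyte markers summed to 11.02 to 48.0 FPKM with OVA-T4 + TGFβ and 4.84 to 13.6 FPKM with OVA-T4, and these sums overlapped. The leading marker of that list, Lyz2, had 28.8, 10.3, 5.91 and 21.03 FPKM with OVA-T4 + TGFβ and 6.53, 2.73, 1.37 and 4.69 FPKM with OVA-T4, higher in every pair (limma adjusted p = 0.0141). C1qb also rose (limma adjusted p = 0.0394), at low means of 1.09 FPKM with OVA-T4 + TGFβ and 0.0852 with OVA-T4 and with overlap. The other tested markers of that list, Cd68 and Cd14, did not pass (limma adjusted p = 0.149 and 0.147). The CD4 T cell, NK cell and stromal sums overlapped between groups. The part of these other transcripts in the results below was not tested, and in bulk RNA fewer cells of a type cannot be told apart from less RNA per cell.

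Sequence before the start sites is shown for 4 members, because Cdk4 and Cdk6 were lower with TGFβ while Cdkn1b was higher, and because Cdk4 and Ccnd3 hold motifs that few start sites have. The sequences are from RefSeq on GRCm38.p6, all on the plus strand and 5′ to 3′, and capitals mark CACGTG (the E-box that Myc binds with Max) in Cdk4 and Cdk6 and TGTTTAC (a FOXO motif, GTAAACA on the other strand) in Ccnd3. Those of Cdk4, Ccnd3 and Cdkn1b end just before the first annotated exon, and that of Cdk6 is a 30-base site, since its window lies in a first exon of a longer annotated Cdk6 transcript.
Cdk4, chr10:127063285-127063533: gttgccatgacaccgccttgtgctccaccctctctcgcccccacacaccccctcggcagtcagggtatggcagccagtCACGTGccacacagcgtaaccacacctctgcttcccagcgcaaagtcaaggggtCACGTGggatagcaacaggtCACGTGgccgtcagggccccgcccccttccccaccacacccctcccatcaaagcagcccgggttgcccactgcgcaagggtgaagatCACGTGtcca
Cdk6, chr5:3343661-3343690: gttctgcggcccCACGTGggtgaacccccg
Ccnd3, chr17:47504801-47505050: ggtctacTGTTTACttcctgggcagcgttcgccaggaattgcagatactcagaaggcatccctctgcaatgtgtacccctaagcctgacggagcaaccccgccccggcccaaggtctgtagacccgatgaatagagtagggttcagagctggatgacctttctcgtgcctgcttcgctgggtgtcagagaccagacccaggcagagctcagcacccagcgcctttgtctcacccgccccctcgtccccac
Cdkn1b, chr6:134920151-134920400: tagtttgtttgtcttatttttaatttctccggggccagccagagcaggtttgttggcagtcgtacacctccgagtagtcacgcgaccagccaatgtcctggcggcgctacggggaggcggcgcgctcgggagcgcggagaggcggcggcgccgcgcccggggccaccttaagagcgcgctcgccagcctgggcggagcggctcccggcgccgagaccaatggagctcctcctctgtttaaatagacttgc

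The 250 bases before each start were searched on both strands for 4 motifs in 12 windows of 9 members. CACGTG stood in the windows of Cdk4 and Cdk6 and in 6.02% of all 32851 windows of mouse genes. Cdk4 held it 4 times, at 172, 118, 98 and 11 bases before its start, and 7 windows in all (0.0213%) held it at least that often. The short SMAD box GTCTG, which reads CAGAC on the opposite strand, stood before Ccnd3, Cdkn1a, Cdkn2b, Cdkn2c and Cdkn2d, and in 42.2% of all windows. GTAAACA or TGTTTAC stood before Ccnd3 alone of the members, 243 bases before its first start, and in 3.17% of all windows. TTTGGCG or CGCCAAA, an E2F motif, stood in none of the 12 windows and in 1.26% of all. Only these exact letters were searched, so other forms of an E2F site, or sites outside the windows, would be missed. The Cdkn1b window held none of the 4. These matches describe letters and not binding.

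**Figure D1:**
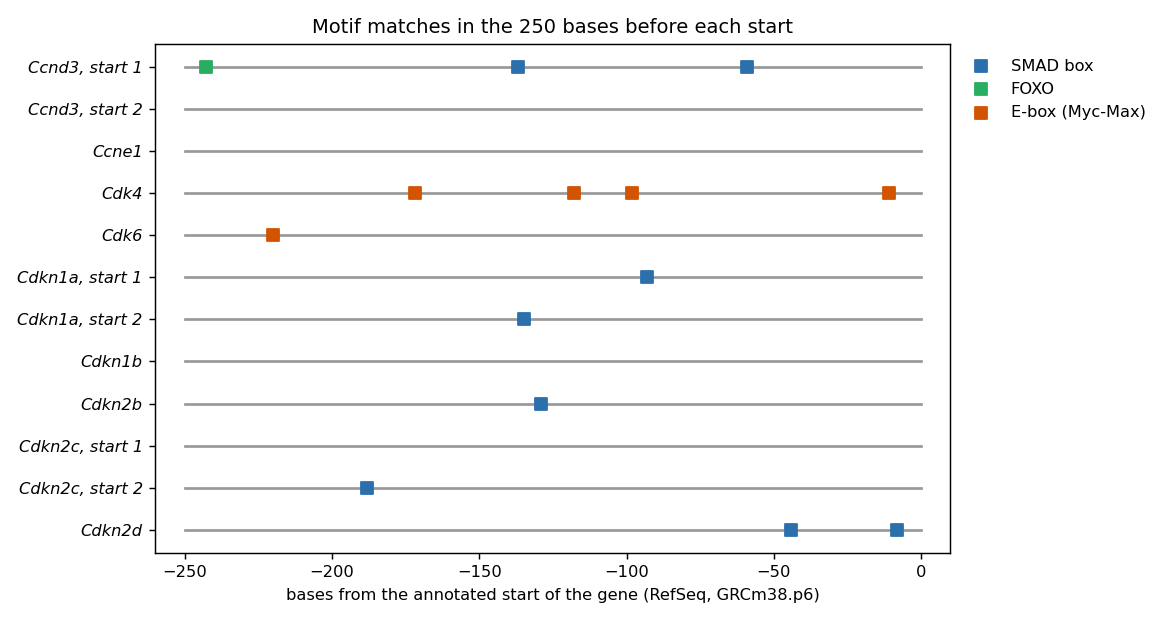
Motif matches in the 250 bases before each start of 9 members (x axis, bases from the annotated start, RefSeq GRCm38.p6; grey lines are the windows searched, squares the first base of a match). Cdk4 holds 4 E-boxes, Cdk6 holds 1, and the windows of Cdkn1b and Ccne1 hold none of the motifs.

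Of the 10 members, 9 had a mean of at least 0.5 FPKM and were tested. In the comparison of OVA-T4 + TGFβ with OVA-T4, 3 members rose (Cdkn1a, Cdkn1b and Cdkn2d, all CDK inhibitors), 3 fell (Ccnd2, Cdk4 and Cdk6), and 3 did not pass an adjusted p of 0.05 (Cdkn2c, Ccnd3 and Ccne1). The share of tested members called was 66.7%, beside 51.0% of the 12879 tested genes (30.7% higher and 20.2% lower). The scaling moves that background, from 3955 genes higher and 2607 lower as deposited to 3129 and 3460 with median of ratios scaling and to 2987 and 3400 with quantile normalization. The groups did not overlap for 4 members (Cdkn1b, Cdkn2d, Cdk4 and Cdk6), beside 48.1% of tested genes. Differences within pairs of the same replicate number had the same direction in all 4 pairs for 8 of the 9 tested members, beside 68.6% of tested genes. With the replicate number as a block, 4 members were higher and 4 lower (88.9% of those tested, beside 60.8% of tested genes, 35.5% higher and 25.4% lower), since Ccnd3 and Ccne1 then passed.

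**Figure D2:**
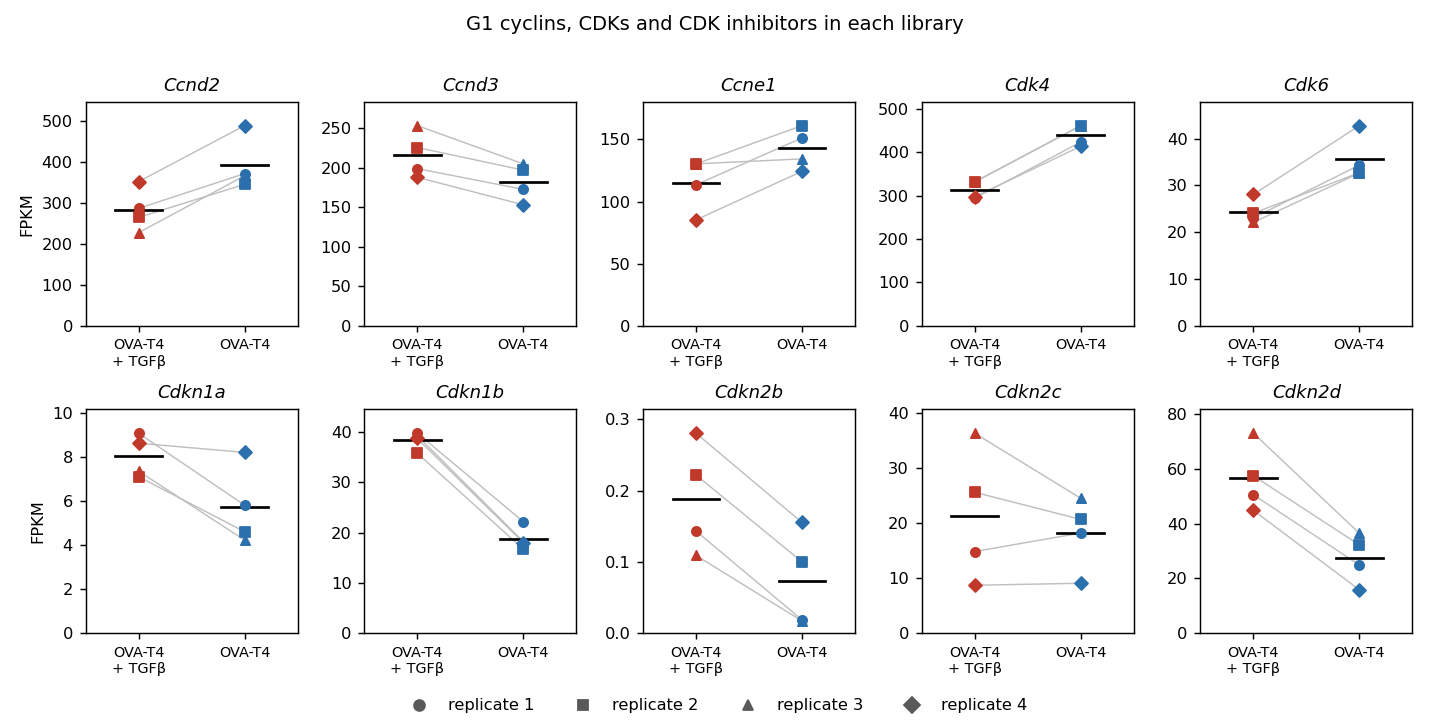
FPKM of the 10 members (y axes, each from 0) in the OVA-T4 + TGFβ libraries (red, left) and the OVA-T4 libraries (blue, right). Symbols mark replicate numbers, grey lines join libraries of the same number and black bars are means of 4; Cdkn1b, Cdkn2d, Cdk4 and Cdk6 separate without overlap, and Cdkn2c overlaps widely.

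The clearest rise was in Cdkn1b (chr6:134920401-134925513, plus strand), which encodes p27, the inhibitor that holds cyclin E with CDK2 inactive. Its level was 39.8, 35.8, 39.3 and 38.8 FPKM in OVA-T4 + TGFβ replicates 1 to 4, against 22.2, 16.7, 18.2 and 18.04 FPKM in OVA-T4 replicates 1 to 4. Every OVA-T4 + TGFβ library stood well above every OVA-T4 library, and the 4 libraries with TGFβ lay close together. The means were 38.4 ± 1.78 FPKM with OVA-T4 + TGFβ and 18.8 ± 2.37 FPKM with OVA-T4 (SD, n = 4 each), a 2.04-fold difference (log2 fold change 1.02, SE 0.09, limma adjusted p = 1.85e-05). On the log2 scale the 4 pairs differed by 0.83, 1.08, 1.09 and 1.08. The call held in all 19 alternatives tried.

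Cdkn1a (chr17:29090976-29100727, plus strand) encodes p21, the related inhibitor that p53 induces after DNA damage. It had 9.10, 7.12, 7.38 and 8.64 FPKM in OVA-T4 + TGFβ libraries, against 5.82, 4.62, 4.24 and 8.23 FPKM in OVA-T4 libraries. OVA-T4 replicate 4 stood apart from the rest of its group and within the range of the TGFβ-treated libraries, so the groups overlapped. The means were 8.06 ± 0.961 FPKM with OVA-T4 + TGFβ and 5.73 ± 1.80 FPKM with OVA-T4 (SD, n = 4 each), with a log2 fold change of 0.49 (SE 0.18, limma adjusted p = 0.0480). The call lies at the threshold: it held in 8 of 19 alternatives, with adjusted p between 0.00312 and 0.131. It depended on the scaling, with a log2 fold change of 0.40 (adjusted p = 0.0747) under median of ratios scaling and 0.31 (adjusted p = 0.131) under quantile normalization, and it was lost with no filter on low values (0.104) and with no variance trend (0.0587). It was also lost without any single OVA-T4 + TGFβ library (0.120, 0.0569, 0.0624 and 0.1004 without replicates 1 to 4) and without OVA-T4 replicate 1, 2 or 3 (0.0745, 0.124 and 0.118), and adjusted p was 0.00312 without OVA-T4 replicate 4 (log2 fold change 0.67).

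Among the INK4 genes, Cdkn2d (chr9:21288410-21291407, minus strand), which encodes p19, rose by a factor close to that of Cdkn1b. Its level was 50.5, 57.4, 72.9 and 44.8 FPKM in OVA-T4 + TGFβ libraries, against 24.8, 32.2, 36.4 and 15.8 FPKM in OVA-T4 libraries. The lowest library with TGFβ was above the highest without it, although the libraries within each group were widely spread. The means were 56.4 ± 12.1 FPKM with OVA-T4 + TGFβ and 27.3 ± 9.03 FPKM with OVA-T4 (SD, n = 4 each), a 2.06-fold difference (log2 fold change 1.07, SE 0.25, limma adjusted p = 0.00564). The pairs differed by 1.01, 0.82, 0.99 and 1.47 on the log2 scale, and the call held in all 19 alternatives.

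Cdkn2c (chr4:109660876-109667189, minus strand), the gene of the INK4 protein p18, had 14.8, 25.6, 36.3 and 8.72 FPKM in OVA-T4 + TGFβ libraries, against 18.2, 20.7, 24.5 and 9.08 FPKM in OVA-T4 libraries. The spread within each group was far larger than the difference between them, and replicate 4 was lowest and replicate 3 highest in both. The means were 21.4 ± 12.2 FPKM with OVA-T4 + TGFβ and 18.1 ± 6.55 FPKM with OVA-T4 (SD, n = 4 each), with a log2 fold change of 0.13 (SE 0.43, 95% interval -0.85 to 1.11, limma adjusted p = 0.823), and the pairs went both ways. The sign turned without OVA-T4 + TGFβ replicate 2 (-0.02), without OVA-T4 + TGFβ replicate 3 (-0.18) and without OVA-T4 replicate 4 (-0.16).

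Cdkn2b (chr4:89306299-89311039, minus strand) encodes p15, the INK4 protein that TGFβ induces in epithelial cells, and in these T cells it was barely detected. It had 0.143, 0.222, 0.109 and 0.280 FPKM in OVA-T4 + TGFβ libraries, from 8, 11, 6 and 14 reads. In OVA-T4 libraries it had 0.0188, 0.1002, 0.0173 and 0.155 FPKM, from 1, 5, 1 and 9 reads. The libraries with TGFβ were higher in each of the 4 pairs, but the groups overlapped, and the values of both lay far below those of every other member. The summed reads were 39 with OVA-T4 + TGFβ and 16 with OVA-T4. With a mean of 0.131 FPKM it was left out of the test, and an exact permutation test of log2(FPKM + 0.5), two-sided, gave p = 0.114, where 4 against 4 libraries cannot go below 0.0286. In the fit with no filter on low values its log2 fold change was 0.27 (limma adjusted p = 0.107).

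Both kinases fell. Cdk4 (chr10:127063534-127067920, plus strand), the main partner of D-type cyclins by FPKM here, had 294, 331, 332 and 298 FPKM in OVA-T4 + TGFβ libraries, against 424, 461, 462 and 414 FPKM in OVA-T4 libraries. The groups lay far apart, and in both of them replicates 2 and 3 were above replicates 1 and 4. The means were 314 ± 20.8 FPKM with OVA-T4 + TGFβ and 440 ± 24.9 FPKM with OVA-T4 (SD, n = 4 each), a ratio of 0.713 (log2 fold change -0.49, SE 0.06, limma adjusted p = 1.93e-04). Cdk4 is the member whose window holds the 4 E-boxes printed above.

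Cdk6 (chr5:3341485-3531008, plus strand), the second kinase of D-type cyclins, had 23.1, 24.1, 22.1 and 28.1 FPKM in OVA-T4 + TGFβ libraries, against 34.3, 32.7, 32.7 and 42.8 FPKM in OVA-T4 libraries. The groups did not overlap, and replicate 4 was highest in both. The means were 24.3 ± 2.62 FPKM with OVA-T4 + TGFβ and 35.6 ± 4.84 FPKM with OVA-T4 (SD, n = 4 each), a ratio of 0.683 (log2 fold change -0.54, SE 0.10, limma adjusted p = 0.00224). Without OVA-T4 replicate 4 the log2 fold change was -0.45 (limma adjusted p = 0.00264). The calls of Cdk4 and Cdk6 held in all 19 alternatives.

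Of the D-type cyclins, Ccnd2 passed the test and Ccnd3 did not. Ccnd2 (chr6:127125162-127152193, minus strand), the cyclin D2 gene, had 287, 264, 227 and 352 FPKM in OVA-T4 + TGFβ libraries, against 372, 345, 366 and 489 FPKM in OVA-T4 libraries. Replicate 4 was the highest of each group, and with TGFβ it lay just above the lowest OVA-T4 library, which was the one overlap. The means were 283 ± 52.3 FPKM with OVA-T4 + TGFβ and 393 ± 64.8 FPKM with OVA-T4 (SD, n = 4 each), with a log2 fold change of -0.48 (SE 0.14, limma adjusted p = 0.0201). All 4 pairs were lower with TGFβ. The call was lost with quantile normalization (adjusted p = 0.0708) and with no filter on low values (adjusted p = 0.0511).

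Ccnd3 (chr17:47505051-47599691, plus strand), the cyclin D3 gene, had 199, 226, 253 and 188 FPKM in OVA-T4 + TGFβ libraries, against 173, 197, 205 and 153 FPKM in OVA-T4 libraries. The groups overlapped, yet each library with TGFβ was above the library of the same number without it. The means were 216 ± 29.3 FPKM with OVA-T4 + TGFβ and 182 ± 23.6 FPKM with OVA-T4 (SD, n = 4 each), with a log2 fold change of 0.25 (SE 0.11, 95% interval -0.01 to 0.51, limma adjusted p = 0.0986). With the replicate block the adjusted p was 5.83e-04, with quantile normalization 0.0219, and with median of ratios scaling 0.378 at a log2 fold change of 0.15.

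Ccne1 (chr7:38097984-38107534, minus strand), the cyclin E1 gene and a target of E2F, had 114, 130, 130 and 85.3 FPKM in OVA-T4 + TGFβ libraries, against 151, 161, 134 and 124 FPKM in OVA-T4 libraries. The groups overlapped between 124 and 130 FPKM, and each pair was lower with TGFβ. The means were 115 ± 21.3 FPKM with OVA-T4 + TGFβ and 143 ± 16.5 FPKM with OVA-T4 (SD, n = 4 each), with a log2 fold change of -0.33 (SE 0.14, limma adjusted p = 0.0783). It passed in 2 of 19 alternatives, with the replicate block (adjusted p = 0.00765) and with median of ratios scaling (0.0367). Without OVA-T4 + TGFβ replicate 4 the log2 fold change was -0.19 (limma adjusted p = 0.140).

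**Figure D3:**
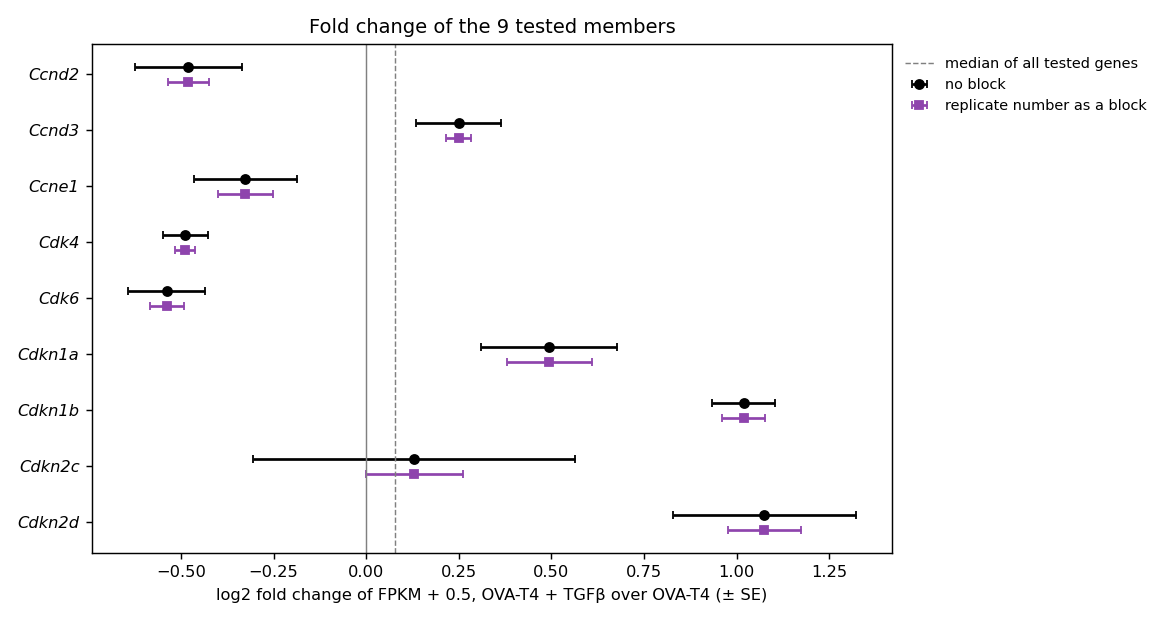
log2 fold change of the 9 tested members (x axis, OVA-T4 + TGFβ over OVA-T4, on log2(FPKM + 0.5)), with bars of 1 SE from limma without a block (black circles) and with the replicate number as a block (purple squares). Cdkn1b at 1.02 and Cdkn2d at 1.07 lie farthest to the right, Cdk4, Cdk6 and Ccnd2 lie near -0.5, and the dashed line at 0.08 is the median of all tested genes.

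FPKM is divided by gene length, so the members can be set in order of FPKM, but that order rests on the lengths used. Those lengths are not given in the sources used here. The smallest that yield whole reads are 2954 bases for Cdk6 and 1271 for Cdkn2d, and may be understated by a common factor. The annotated exons hold 13989 and 1574 bases. In OVA-T4 + TGFβ libraries the order of means was Cdk4, Ccnd2, Ccnd3, Ccne1, Cdkn2d, Cdkn1b, Cdk6, Cdkn2c, Cdkn1a and Cdkn2b. The neighbours Cdk4 and Ccnd2, Ccnd2 and Ccnd3, Cdk6 and Cdkn2c, and Cdkn2c and Cdkn1a overlapped there, so that their order is not firm. In OVA-T4 libraries it was Cdk4, Ccnd2, Ccnd3, Ccne1, Cdk6, Cdkn2d, Cdkn1b, Cdkn2c, Cdkn1a and Cdkn2b, and the neighbours Cdk4 and Ccnd2, Ccnd3 and Ccne1, Cdk6 and Cdkn2d, Cdkn2d and Cdkn1b, and Cdkn1b and Cdkn2c overlapped. By their mean FPKM, Cdkn2d and Cdkn1b thus stood above Cdk6 with TGFβ and below it without, an order that rests on the same lengths.

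Ratios of FPKM within a library do not depend on how that library was scaled, and are given as a description with no test. Their size does depend on the gene lengths behind the FPKM values. Cdkn2a, another INK4 gene, is not a member and averaged 0.0160 FPKM with OVA-T4 + TGFβ and 0.0885 with OVA-T4. The sum of the 3 INK4 members over the sum of Cdk4 and Cdk6 was 0.206, 0.234, 0.309 and 0.165 in OVA-T4 + TGFβ libraries, against 0.0940, 0.107, 0.123 and 0.0549 in OVA-T4 libraries. The groups did not overlap, and the mean ratio was 2.41 times as high with OVA-T4 + TGFβ (0.229 ± 0.0604) as with OVA-T4 (0.0948 ± 0.0292, SD, n = 4 each). Cdkn1a plus Cdkn1b over Ccne1 was 0.431, 0.330, 0.358 and 0.556 in OVA-T4 + TGFβ libraries, against 0.185, 0.132, 0.167 and 0.211 in OVA-T4 libraries. These groups did not overlap either, with means of 0.419 ± 0.101 with OVA-T4 + TGFβ and 0.174 ± 0.0331 with OVA-T4 (SD, n = 4 each).

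Within families, the ratio of Cdkn2c to Cdkn2d averaged 0.358 ± 0.139 with OVA-T4 + TGFβ and 0.655 ± 0.0659 with OVA-T4, without overlap. That of Cdkn1b to Cdkn1a averaged 4.81 ± 0.453 with OVA-T4 + TGFβ and 3.48 ± 0.907 with OVA-T4, also without overlap, but only narrowly (4.37 at the lowest with TGFβ, 4.30 at the highest without). That of Ccnd2 to Ccnd3 averaged 1.35 ± 0.416 with OVA-T4 + TGFβ and 2.22 ± 0.672 with OVA-T4, lower in each pair but with overlap. The ratio of Cdk6 to Cdk4 was 0.0780 ± 0.0119 with OVA-T4 + TGFβ and 0.0815 ± 0.0153 with OVA-T4, a difference well inside the spread (SD, n = 4 each).

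**Figure D4:**
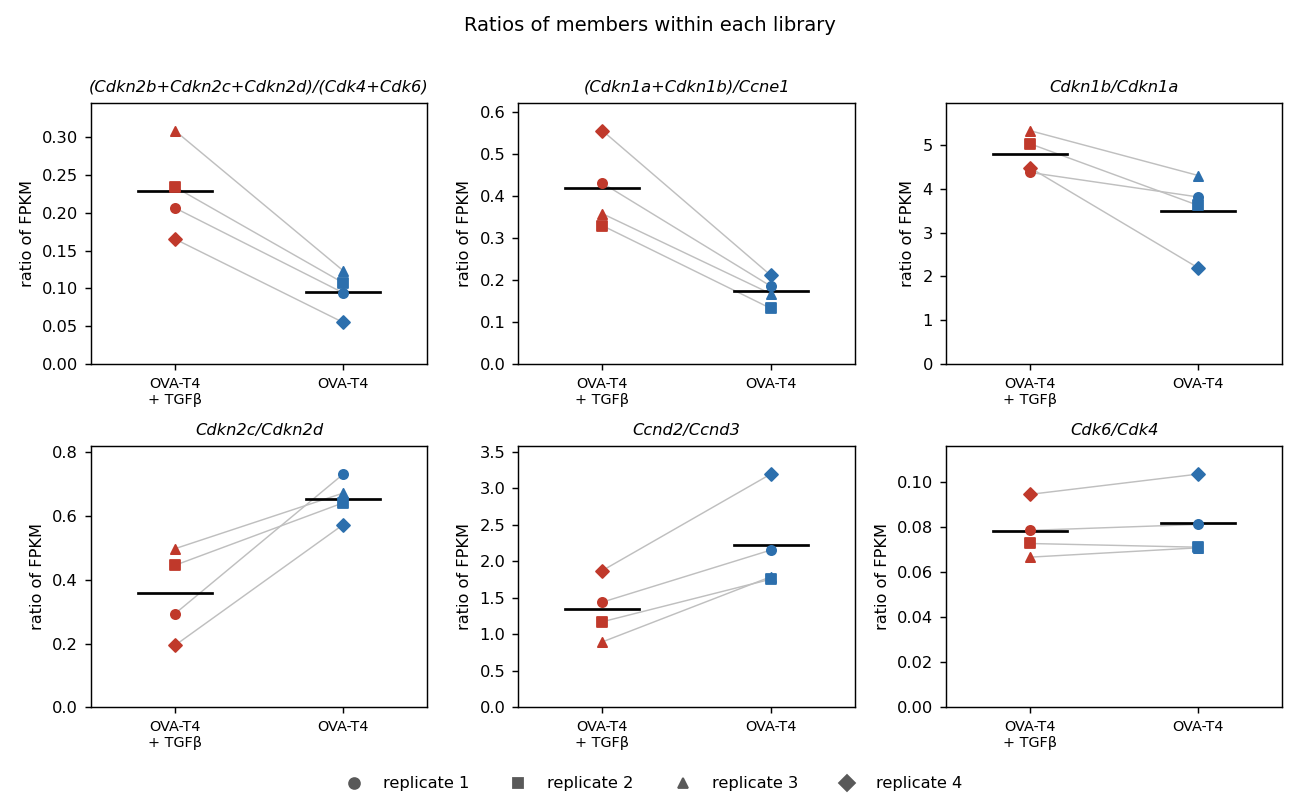
Ratios of member FPKM within each library (y axes, from 0) for OVA-T4 + TGFβ (red, left) and OVA-T4 (blue, right), with symbols for replicate numbers, lines joining the same number and black bars for means of 4. The INK4 to kinase and the CIP/KIP to Ccne1 ratios are each about 2.41 times as high with TGFβ, and the Cdk6 to Cdk4 ratio overlaps throughout.

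Several members varied with the replicate number in the same way in both groups. Replicate 3 was highest and replicate 4 lowest of both groups for Cdkn2c, Cdkn2d and Ccnd3, a pattern seen in 675 tested genes (5.24%). It was seen in all 24 of a list of G2 and mitosis genes, whose level (the mean on the log2 scale, turned back to FPKM) was 29.97, 50.4, 70.9 and 17.2 in OVA-T4 + TGFβ replicates 1 to 4, against 44.4, 64.3, 87.7 and 23.2 in OVA-T4 replicates 1 to 4. The reverse, replicate 4 highest and replicate 3 lowest, was seen for Cdk6 and Cdkn2b and in 777 tested genes (6.03%). The labels give no batch, day or animal that would name what the replicate numbers share.

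With the level of the mitosis list added as a covariate, an alternative chosen after seeing the data, 5 members were higher and 3 lower. The share of all tested genes called in that fit was not worked out, so these counts have no background beside them. The list level was itself lower with OVA-T4 + TGFβ in each same-numbered pair. In that fit Cdkn2c had a log2 fold change of 0.49 (limma adjusted p = 0.00254) and Ccnd3 one of 0.34 (limma adjusted p = 4.66e-05). Ccne1 did not pass, at a log2 fold change of -0.24 (limma adjusted p = 0.0563). Mki67, the proliferation marker, had 44.0, 71.6, 100.5 and 24.2 FPKM in OVA-T4 + TGFβ libraries, against 65.5, 72.9, 94.4 and 31.3 FPKM in OVA-T4 libraries. The range of the OVA-T4 libraries lay inside that of the libraries with TGFβ, and its log2 fold change was -0.22 (SE 0.45, limma adjusted p = 0.717).

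**Figure D5:**
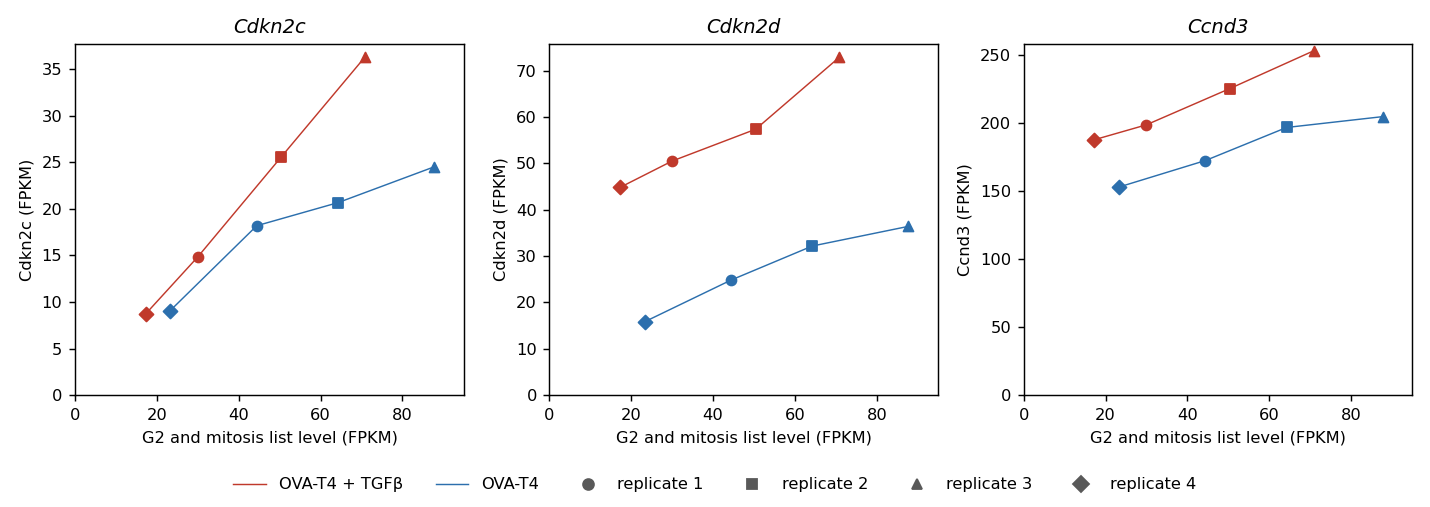
FPKM of Cdkn2c, Cdkn2d and Ccnd3 (y axes, from 0) against the level of the G2 and mitosis list (x axis, FPKM) in each of 8 libraries. Red is OVA-T4 + TGFβ, blue is OVA-T4, symbols are replicate numbers and lines join the libraries of a group; replicate 4 is lowest and replicate 3 highest on both axes in each group, and at like list levels the red points of Cdkn2d lie above the blue.

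Genes that act with the members were followed by lists. Over all tested genes 51.0% were called, 30.7% higher and 20.2% lower. Beside this, the share called was 55.6% for CDK partners, 46.2% for Rb and E2F, 19.2% for S phase and 0% for mitosis. It was 43.8% for turnover, 72.2% for p53 targets and 83.3% for regulators, and no test of these shares was made. Of 9 tested partners of the CDKs, 0 rose, 5 fell and 4 did not pass. The list holds activators and inhibitors of CDKs alike, and its median log2 fold change was -0.21 beside 0.08 over all tested genes. At an unadjusted p under 0.05 the count higher was also 0, and it was 0 with the replicate block. Ccnh, the cyclin of the CDK-activating kinase, had a log2 fold change of -0.47 (48.2 ± 3.53 FPKM with OVA-T4 + TGFβ and 66.9 ± 4.84 with OVA-T4). Cdc25a, a phosphatase that activates CDK2, had one of -0.39 (53.04 ± 1.68 FPKM with OVA-T4 + TGFβ and 69.8 ± 0.579 with OVA-T4, SD, n = 4 each). The count of 5 was 3 without OVA-T4 + TGFβ replicate 1 or 4, without OVA-T4 replicate 1, 2 or 4, and with TPM scaling.

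Of 13 genes of the Rb and E2F families, 3 rose, 3 fell and 7 did not pass, with a median log2 fold change of -0.18. Rbl2, which encodes the Rb relative p130 of resting cells, had 51.6, 42.8, 44.8 and 50.2 FPKM in OVA-T4 + TGFβ libraries, against 28.9, 22.9, 22.3 and 27.1 FPKM in OVA-T4 libraries. All libraries with TGFβ were above all without it (log2 fold change 0.90, limma adjusted p = 8.27e-05). The E2F partners went both ways, with Tfdp2 at a log2 fold change of 0.54 and Tfdp1 at -0.52, and the repressor E2f6 had -0.29. Without OVA-T4 + TGFβ replicate 4 the counts were 5 higher and 1 lower, and 1 was lower without OVA-T4 replicate 2.

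Of 26 S phase genes, 0 rose, 5 fell and 21 did not pass, and all 26 had a log2 fold change below 0 (median -0.22). The count higher was 0 at an unadjusted p under 0.05 and with the replicate block. Mcm10, a replication initiation factor, had a log2 fold change of -0.39 (64.8 ± 11.9 FPKM with OVA-T4 + TGFβ and 84.0 ± 4.29 with OVA-T4, SD, n = 4 each). The count of 5 was 16 with the replicate block and 13 with median of ratios scaling. It was 2 without OVA-T4 + TGFβ replicate 1 or OVA-T4 replicate 2, 3 without OVA-T4 replicate 1 or 3, 8 and 11 without OVA-T4 + TGFβ replicates 2 and 3, and 9 without OVA-T4 replicate 4.

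Of 24 G2 and mitosis genes none passed by limma in either direction, and 0 did so at an unadjusted p under 0.05, although 22 had a log2 fold change below 0 (median -0.42). With the replicate block 19 were lower and 0 higher.

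Turnover of p27 and cyclin E runs through ubiquitin ligases. Of 16 genes of this ubiquitin machinery, some of which act on D-type cyclins or other proteins, 1 rose, 6 fell and 9 did not pass (median log2 fold change -0.20). Rnf123, a subunit of a ligase for p27 in G1, had a log2 fold change of 0.55 (56.7 ± 5.04 FPKM with OVA-T4 + TGFβ and 38.7 ± 4.64 with OVA-T4). Cdc34, the ubiquitin-conjugating enzyme of SCF ligases, had one of -0.51 (75.2 ± 5.39 FPKM with OVA-T4 + TGFβ and 107.6 ± 14.8 with OVA-T4). Ddb1, the adaptor of CUL4 ligases, had one of -0.37 (115 ± 3.24 FPKM with OVA-T4 + TGFβ and 149 ± 10.2 with OVA-T4, SD, n = 4 each). The count higher was 2 without OVA-T4 + TGFβ replicate 2 and with the replicate block.

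Of 18 tested p53 targets, a list followed because Cdkn1a is one, 9 rose, 4 fell and 5 did not pass (median log2 fold change 0.16). Trp53inp1, a stress-induced regulator of p53 and autophagy, had a log2 fold change of 1.63 (92.4 ± 6.47 FPKM with OVA-T4 + TGFβ and 29.8 ± 5.43 with OVA-T4). Pmaip1, which encodes the death protein Noxa, had one of 1.41 (13.0 ± 1.03 FPKM with OVA-T4 + TGFβ and 4.63 ± 0.815 with OVA-T4, SD, n = 4 each). Plk2 and Phlda3 fell, with log2 fold changes of -0.89 and -0.59 at mean levels of 0.265 and 0.834 FPKM with OVA-T4 + TGFβ and 0.980 and 1.51 FPKM with OVA-T4.

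Of 30 tested regulators of the members' transcription, 17 rose, 8 fell and 5 did not pass (median log2 fold change 0.34), and 5 fell without OVA-T4 + TGFβ replicate 2 or 3 or OVA-T4 replicate 2. Myc had 50.9, 46.6, 33.6 and 62.2 FPKM in OVA-T4 + TGFβ libraries, against 132, 121, 108 and 168 FPKM in OVA-T4 libraries. Its groups lay far apart (log2 fold change -1.46, SE 0.19, limma adjusted p = 2.24e-04). Replicate 4 was highest and replicate 3 lowest in both groups, as in 777 tested genes (6.03%). Mxd4, a partner of Max that opposes Myc, rose with a log2 fold change of 3.51 (56.7 ± 10.9 FPKM with OVA-T4 + TGFβ and 4.76 ± 1.99 with OVA-T4). Runx1 rose with one of 2.68 (19.1 ± 2.32 FPKM with OVA-T4 + TGFβ and 2.56 ± 0.174 with OVA-T4). Smad3, a transducer of the TGFβ signal, fell with one of -1.82 (5.15 ± 1.00 FPKM with OVA-T4 + TGFβ and 19.3 ± 2.15 with OVA-T4, SD, n = 4 each). Adjusted p was under 0.05 by limma for every list gene said to have risen or fallen.

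For each member the tested gene with the most similar pattern over the 8 libraries was sought by Pearson r of log2(FPKM + 0.5), a description that shares libraries and groups and carries no test. It was Kpnb1 for Cdk4 (r = 0.999), Vamp7 for Ccnd3 (0.999), 9030617O03Rik for Cdkn1b (0.998), Gemin8 for Cdk6 (0.995), Ccl3 for Ccnd2 (0.994), Gm28100 for Cdkn2d (0.992), Gm26935 for Cdkn1a (0.990), Mxd3 for Cdkn2c (0.989), Prkar2b for Ccne1 (0.985) and Ly6i for Cdkn2b (0.981). With 12879 genes to choose from and 8 libraries, values this near 1 come with the search.

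Some members share exon sequence with genes on the opposite strand, and whether the counting used strand is not given in the sources used here. Cdk4 shares 641 bases with Tspan31, which averaged 15.8 FPKM over all libraries beside 377 for Cdk4, and Ccnd3 shares 361 bases with Bysl, which averaged 23.2 FPKM beside 199 for Ccnd3. The other opposite-strand genes in the table that share exon bases with Ccnd2 and Cdk6 averaged at most 0.516 FPKM.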

How the data were processed

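RNA-seq libraries of OT-I T cells stimulated with OVA-T4 + TGFβ (4) or OVA-T4 (4) were grouped by the sample labels, which call them biological replicates. The authors deposited 1 table of FPKM values. The tools named in the submitters' processing notes are CASAVA, HISAT2 and HTSeq (no versions), on mm10. The authors tested counts with DESeq2, and those counts were not used here. FPKM is scaled to library total and gene length, so a few very high rows shift all others. Library totals were inferred from the commonest value of FPKM times annotated exon length among low genes, assumed to mark 1 read. Reads per gene were then solved as the smallest whole numbers behind the FPKM values (tolerance 0.005 reads), so a gene's reads may be understated by a common factor.

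The groups were compared over the 12879 genes that averaged 0.5 FPKM or more. Values were taken as log2(FPKM + 0.5) and fitted with limma 3.58.1 (R 4.3.3), using its trended variance prior. Tests were two-sided, p was adjusted over all those genes by Benjamini-Hochberg, and a call needed an adjusted p under 0.05. This fold change understates that of low genes. The script was tested on simulated data, with noise drawn independently for each library and far fewer changed genes than were called here. That test therefore does not cover variation shared by replicate number or a background this large. Members, lists and the fit were chosen with earlier results of these data known. Named are all members, the 2 highest and 2 lowest called genes of each list, the gene most like each member, Myc, Smad3 and Mki67, and marker lists that separate the groups, apart from items that are not reported here; other markers and the overlapping genes were named after their values were seen. Alternatives were other pseudocounts (0.1 and 1), filters, scalings, variance settings, the replicate block, library weights and each library left out.

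Libraries were paired by replicate number, although the labels do not state a pairing. Deviations from the group mean were correlated between same-numbered libraries (r of 0.179, 0.205, 0.419 and 0.505), against -0.489 to 0.254 between numbers. Only replicates 3 and 4 matched best by number in both directions. OVA-T4 + TGFβ replicate 1 correlated best with OVA-T4 replicate 4 (0.246), and OVA-T4 + TGFβ replicate 2 with OVA-T4 replicate 3 (0.239). The pairing of replicates 1 and 2 is therefore not firm. Positions were read from the GENCODE M21 annotation of GRCm38, where 46574 of 47069 gene IDs (98.9%) were found, and promoter sequences from RefSeq (GRCm38.p6) for 9 of 10 members. Further steps ran in Python 3.11.15 (SciPy 1.17.1, pandas 2.3.3, numpy 2.4.6) and plots in matplotlib 3.10.9.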

Additional observations from a re-analysis of the deposited data

Results flagged for a closer look

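Cdk6 in OVA-T4 replicate 4, at 42.8 FPKM, stood far from the other OVA-T4 libraries (32.7 to 34.3 FPKM) by Dixon's test. Of 46 groups of 4 values tested it was the 1 that did so, and chance gives about 1 in 20. In OVA-T4 + TGFβ libraries the same replicate number was also highest for Cdk6, at 28.1 FPKM.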

How the results depend on the processing

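The calls of Cdkn1b, Cdkn2d, Cdk4 and Cdk6 kept their direction and side of the threshold in all 19 alternatives, and of 172 comparisons of single members 150 did so, 13 were weaker, 6 stronger and 3 reversed. The reversed ones are Cdkn2c, whose log2 fold change ran from -0.18 to 0.48 as each library was left out (-0.02 without OVA-T4 + TGFβ replicate 2). With the mitosis list as a covariate 5 members were higher, a count with no share over all tested genes beside it. With 1 library left out, the number of genes lower ran from 3 to 5 for the CDK partners, from 1 to 3 for Rb and E2F, from 2 to 11 for S phase and from 5 to 7 for the regulators, and the number higher from 3 to 5 for Rb and E2F and from 1 to 2 for turnover. TPM scaling gave 3 lower CDK partners and 2 higher turnover genes, and a filter at 1 FPKM also gave 2 higher turnover genes. No filter gave 1 lower gene for Rb and E2F and 3 for S phase, median of ratios 13 for S phase and 10 for turnover, and quantile normalization 2 for S phase. The replicate block gave 16 lower S phase genes, 19 lower mitosis genes and 2 higher turnover genes, and the pairing let Ccnd3 (adjusted p = 5.83e-04) and Ccne1 (0.00765) pass. The causes were not tested. Scaling shifts the background: all tested genes split into 3955 higher and 2607 lower as reported, 3129 and 3460 with median of ratios, and 2987 and 3400 with quantile normalization, which lowered the median log2 fold change by 0.11. None of the 9 tested members changed sign with scaling, and Cdkn2b was not fitted under another scaling. All 48 values of the ratios with a library left out (chosen after seeing the data) moved by less than the spread between replicates. This could not fail with 4 libraries a group, since dropping a library moves a group mean by less than the group's SD. It is therefore no test of the ratios. As a description, the INK4 to kinase ratio with OVA-T4 + TGFβ was 2.11 to 2.68 times that with OVA-T4. The CIP/KIP to Ccne1 ratio was 2.14 to 2.59 times as high, and the Cdk6 to Cdk4 ratio 0.890 to 1.05 times. Depth limits only Cdkn2b, with 1 to 14 reads a library, and the intervals cover these libraries alone.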
